A study of Mus musculus with 4 samples.

Results

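The genes described here are Rasd1 and 9 other genes of the glucocorticoid response: Tsc22d3, Fkbp5, Per1, Sgk1, Dusp1, Nr3c1, Zfp36, Klf9 and Cebpd. They were taken from the deposited table by matching gene identifiers to these symbols in the GENCODE M21 mouse annotation (build GRCm38). All 10 were found among 51826 gene identifiers, and all 10 passed the filter on low counts, which kept 21607 genes. Rasd1 was chosen with its HET and WT values in these same libraries known. The other members were listed in the same way, so the values of all 10 in this comparison are given as a description, with no test.

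RNA came from 4 mouse mammary tumours of animals positive for the C3-T transgene, 2 with both Elf5 alleles intact (Elf5+/+, here WT) and 2 with a single intact allele (Elf5+/-, here HET). C3-T is not spelled out in the labels. In this field the name stands for the simian virus large T antigen driven by the regulatory region of the rat C3 prostatic steroid-binding protein gene, and the controls carry it too. Tumours were dispersed with collagenase and hyaluronidase, and cells were sorted with antibodies to CD45, CD31 and TER119 to enrich tumour cells. Both HET titles carry the number 3211, whereas the WT titles carry 3210 and 4972. The labels do not say whether that number names an animal, so both HET libraries may come from 1 animal, and the spread given here is between libraries. No label gives age, strain or hormone exposure.

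Totals lay between 12695132 and 15307939 counts. Levels are given as CPM, the count rate of a gene after scaling by TMM, a method that sets libraries on a shared level. Elf5, the gene that differs between the genotypes, stood at 35.6 CPM (WT 1), 4.70 (library labelled WT 2), 5.39 (HET 1) and 10.6 (HET 2). Its level in the library labelled WT 2 was thus below both HET libraries, and a whole-gene count does not tell which exons were read. That library stood apart in other ways: 44.5% of gene identifiers had no count in it against 29.9% to 31.3% in the others, and its summed leukocyte markers were at 17.1 CPM against 298.9 to 372.9. Values for a WT pair are given as WT 1, then the library labelled WT 2, and for a HET pair as HET 1, then HET 2. Epithelial markers were present in all libraries, for example Epcam at 1040 CPM (WT 1), 1288 (library labelled WT 2), 768.6 (HET 1) and 613.4 (HET 2).

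Glucocorticoids are steroid hormones that enter cells and bind the glucocorticoid receptor, which heat shock protein chaperones hold in the cytoplasm. The bound receptor moves to the nucleus, attaches to paired half-sites in DNA and raises transcription of genes that restrain inflammation and adjust metabolism, growth and the circadian clock. In the mammary gland, glucocorticoids act with prolactin and insulin in the development of the secretory epithelium and in milk protein expression. Several of the members are also induced by other stimuli, including growth factors and tissue dissociation (Dusp1, Zfp36, Cebpd) and time of day (Per1).

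Rasd1 encodes a Ras-like GTPase, also called Dexras1, that was first found as a transcript induced by dexamethasone. Its single annotated transcript (chromosome 11, 59963181 to 59964944, minus strand, 1611 bases) has 280 codons and ends in a CAAX box, the signal for attachment of a lipid. The last 30 coding bases are shown beside those of Rasd2, its closest relative, because both carry this box. Capitals mark the CAAX codons and the stop codon, and both sequences come from the GENCODE M21 transcripts.
Rasd1: aaggacaaggagcgcTGTGTCATCAGTTAG
Rasd2: cgagagagggacaagTGTAGCATCCAGTGA

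Promoter windows, from 250 bases before to 50 bases after a start, were taken from RefSeq (GRCm38.p6) for the 7 members with an entry: Tsc22d3, Fkbp5, Per1, Sgk1, Dusp1, Zfp36 and Klf9. Rasd1, Nr3c1 and Cebpd had none there. Together these genes had 15 windows, 6 of them of Sgk1. Each was searched on both strands for the receptor half-site AGAACA, for a pair of half-sites in the form GNACANNNTGTNC, for the E-box CACGTG that clock factors bind, and for the cyclic AMP response element TGACGTCA. The bases upstream of the start are printed for 3 members, with all matches in capitals: the Sgk1 window because it held the only paired element, the Tsc22d3 window because it held the only half-site of a member that was higher in HET, and the Per1 window because it held the E-box of the clock gene among the members.
Sgk1 (chr10:21993640-21993889, plus strand): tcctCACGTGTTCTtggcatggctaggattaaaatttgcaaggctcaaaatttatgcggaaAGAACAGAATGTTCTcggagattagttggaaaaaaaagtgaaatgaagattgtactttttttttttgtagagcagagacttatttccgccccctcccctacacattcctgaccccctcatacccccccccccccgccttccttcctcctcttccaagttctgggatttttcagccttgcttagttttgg
Tsc22d3 (chrX:140600523-140600772, minus strand): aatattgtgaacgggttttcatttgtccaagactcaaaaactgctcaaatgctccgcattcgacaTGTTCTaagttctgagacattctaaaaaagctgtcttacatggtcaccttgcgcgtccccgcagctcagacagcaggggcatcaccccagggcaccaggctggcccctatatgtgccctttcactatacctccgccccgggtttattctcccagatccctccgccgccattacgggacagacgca
Per1 (chr11:69098699-69098948, plus strand): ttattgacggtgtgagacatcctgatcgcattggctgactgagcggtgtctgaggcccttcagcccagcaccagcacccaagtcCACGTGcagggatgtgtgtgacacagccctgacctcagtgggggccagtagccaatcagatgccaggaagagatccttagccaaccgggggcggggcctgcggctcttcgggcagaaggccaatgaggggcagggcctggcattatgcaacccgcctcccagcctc

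In the Sgk1 window the paired element GAACAGAATGTTC lay at bases 63 to 75, made of half-sites at bases 62 to 67 and 71 to 76. A further half-site at bases 9 to 14 shared letters with an E-box at bases 5 to 10. Half-sites were found for 2 of 7 members (Tsc22d3 and Sgk1), against 21.3% of all 27025 genes with windows of this length. The paired element was in 1 of 7, against 0.537% of all genes, and the E-box in 4 of 7 (Fkbp5, Per1, Sgk1 and Dusp1), against 8.09%. Dusp1 alone held the cyclic AMP element, which 2.03% of all genes held. Genes with more windows have more chances of a match, and a match in this window is a description of the letters, not a binding site.

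Rasd1 was the member with the largest difference between genotypes. It stood at 10.1 CPM in WT 1 and 6.91 in the library labelled WT 2, and at 35.2 in HET 1 and 34.9 in HET 2 (127, 97, 543 and 470 counts). The HET libraries were within 1.01-fold of each other and the WT libraries within 1.46-fold, while the lower HET library was 3.45-fold above the higher WT library. With n = 2 libraries per genotype, edgeR put the difference, HET minus WT, at 2.04 ± 0.36 (SE) on the log2 scale, or 4.12-fold. Without the library labelled WT 2 it was 1.79, and without WT 1 it was 2.34. This contrast chose Rasd1, so its size is a description.

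Ratios of counts within a library do not depend on how libraries are scaled. For every 100 counts of Tsc22d3 there were 30.4 and 19.7 counts of Rasd1 in the WT pair against 53.6 and 70.4 in the HET pair. Per 100 counts of Fkbp5 the values were 18.9 and 8.88 in the WT pair against 56.6 and 60.0 in the HET pair. The same ratio to each of the other 7 members also had both HET values above both WT values. These ratios use the values that chose Rasd1 and are no separate evidence.

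**Figure D1:**
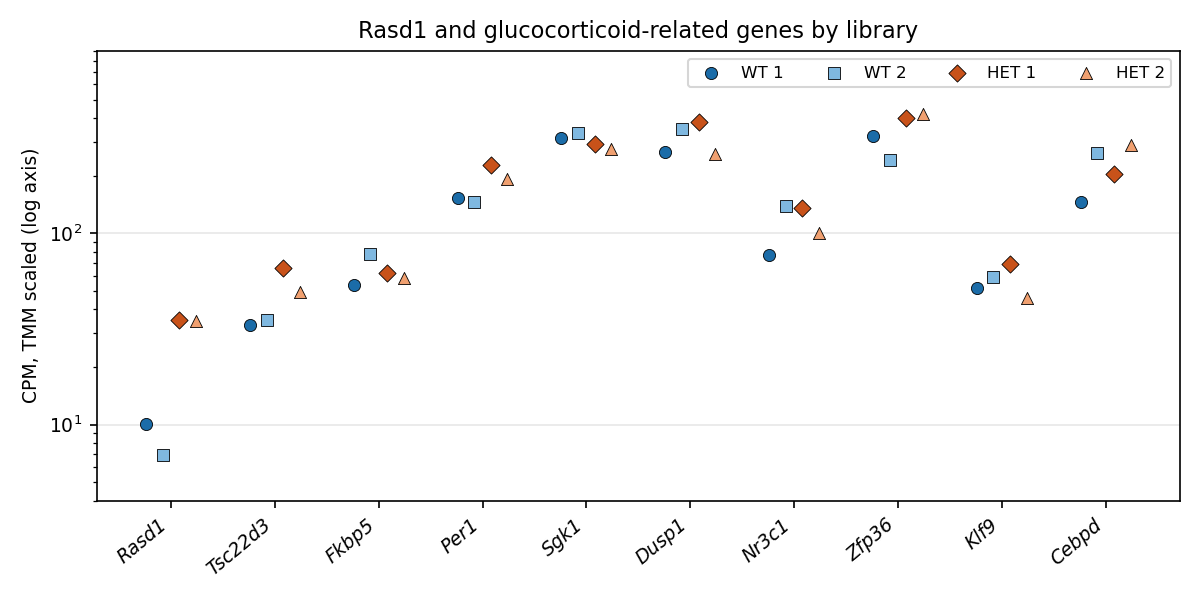
Expression of the 10 genes in each library, as CPM scaled by TMM on a log axis. Circles and squares are WT 1 and the library labelled WT 2, and diamonds and triangles are HET 1 and HET 2. Rasd1 lies at 35.2 and 34.9 CPM in HET and at 10.1 and 6.91 in WT, whereas the symbols of Fkbp5, Dusp1, Nr3c1, Klf9 and Cebpd are mixed between genotypes.

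Among the other transcriptional regulators and clock genes of the set, 2 members were also higher in both HET libraries. Tsc22d3 (chromosome X) encodes the glucocorticoid-induced leucine zipper protein, which restrains inflammatory transcription factors. Tsc22d3 stood at 33.2 CPM (WT 1), 35.0 (library labelled WT 2), 65.8 (HET 1) and 49.6 (HET 2), with a log2 fold change of 0.76 ± 0.30 (SE). The lower HET library was 1.41-fold above the higher WT library, close to the 1.33-fold spread between both HET libraries. Per1 (chromosome 11) encodes a repressor of the circadian clock with a long-known receptor site in its regulatory region. Its levels in CPM were 153.1 and 145.2 in the WT pair against 227.3 and 191.2 in the HET pair, a log2 fold change of 0.49 ± 0.29 (SE).

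Zfp36, which encodes tristetraprolin, a protein that speeds the decay of cytokine messenger RNAs, was the fourth member higher in both HET libraries. Values of 322.6 and 241.9 CPM in the WT pair against 400.5 and 420.5 in the HET pair gave a log2 fold change of 0.54 ± 0.31 (SE). Here the gap between genotypes, 1.24-fold, was smaller than the spread between both WT libraries, 1.33-fold. Zfp36 overlaps an antisense gene that stayed below 1 CPM (0.0712 to 0.795 CPM), and reads of either strand cannot be told apart because strandedness is not given in the sources used here.

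Sgk1 was the only member lower in both HET libraries. It encodes a kinase that regulates ion channels and survival and is a classic early glucocorticoid target. Sgk1 stood at 313.9 CPM (WT 1), 334.0 (library labelled WT 2), 291.5 (HET 1) and 275.3 (HET 2), a log2 fold change of -0.19 ± 0.29 (SE). This difference was smaller than its standard error, and with libraries scaled to total counts alone the groups overlapped and the log2 fold change was -0.01.

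The remaining 5 members overlapped between genotypes. Fkbp5 encodes the co-chaperone that lowers the hormone affinity of the receptor and is widely used as a readout of receptor activity. It stood at 53.4 and 77.8 CPM in the WT pair against 62.3 and 58.1 in the HET pair, for a log2 fold change of -0.12 ± 0.31 (SE). That value became 0.17 when the library labelled WT 2 was left out and 0.06 with total-count scaling. Dusp1, a phosphatase that switches off MAP kinases, was at 266.2 and 349.0 CPM in the WT pair against 381.0 and 258.3 in the HET pair, a log2 fold change of 0.06 ± 0.35 (SE). Klf9, a zinc finger transcription factor, was at 51.8 and 59.1 CPM in the WT pair against 69.1 and 45.6 in the HET pair, a log2 fold change of 0.05 ± 0.32 (SE). For both, HET 1 was the highest library and HET 2 the lowest. Dusp1 lies across Ergic1, a gene on the opposite strand at 40.05 to 72.8 CPM.

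Cebpd and the receptor itself varied most within a genotype. Cebpd, a transcription factor of the acute-phase response and of mammary involution, stood at 146.3 CPM (WT 1), 263.0 (library labelled WT 2), 204.9 (HET 1) and 289.6 (HET 2), a log2 fold change of 0.27 ± 0.40 (SE). Nr3c1, the glucocorticoid receptor gene, stood at 77.1 and 138.8 CPM in the WT pair against 135.7 and 100.03 in the HET pair, a log2 fold change of 0.13 ± 0.38 (SE). WT 1 was the lowest library for both genes, and the WT libraries differed 1.80-fold for each. Without the library labelled WT 2 the log2 fold change of Nr3c1 was 0.61, and without WT 1 it was -0.24. Cebpd overlaps Spidr on the opposite strand, which was at 72.6 CPM in the library labelled WT 2 and 27.2 to 29.9 in the others.

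**Figure D2:**
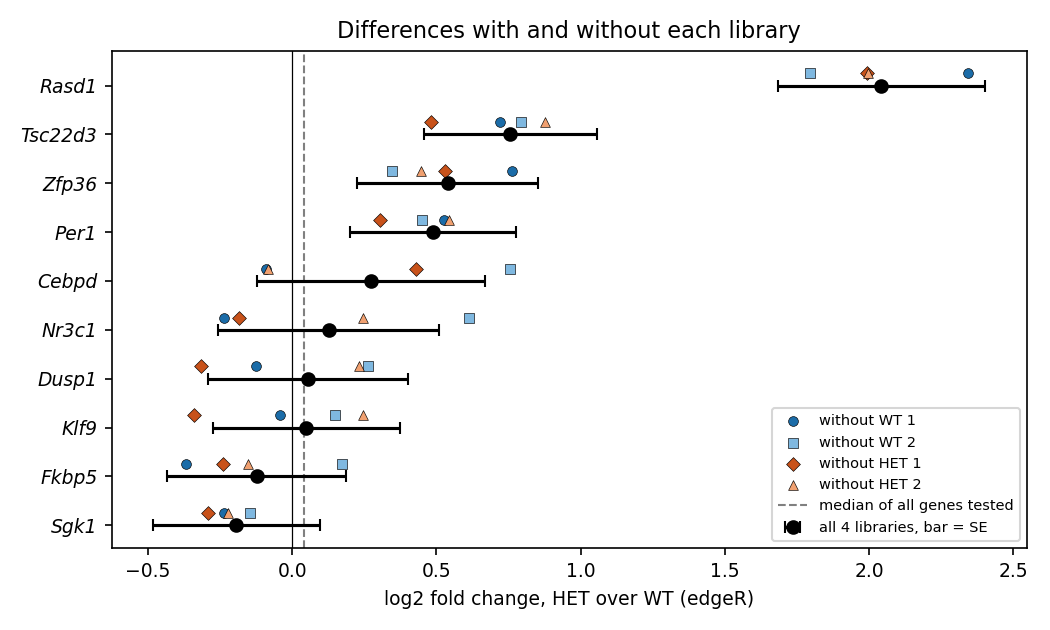
Log2 fold change of HET over WT for each gene from edgeR (black points, bars are SE, n = 2 libraries per genotype), with the value after leaving out each library drawn above it. Rasd1 stays between 1.79 and 2.34, while Cebpd, Nr3c1, Dusp1, Klf9 and Fkbp5 have values on both sides of 0.

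As a set, 4 of 10 members were higher in both HET libraries, where 19.6% of all genes tested were, and 1 of 10 was lower in both, where 15.9% of all genes were. The median log2 fold change of the members was 0.20, against 0.04 over all genes. Of the members 8 of 10 were above 0, as were 11392 of all 21607 genes. Without the library labelled WT 2, log2 fold changes were 0.80 for Tsc22d3, 0.45 for Per1, 0.35 for Zfp36, -0.15 for Sgk1 and 0.76 for Cebpd. The median of the members was 0.40 without the library labelled WT 2 and -0.07 without WT 1. Across all 21607 genes, 0 (0%) passed an adjusted p under 0.05 in edgeR's quasi-likelihood test. Before adjustment, 817 genes had a p under 0.05, or 3.78%. DESeq2 called 43 genes higher and 91 lower, and limma-voom called 0. These shares are printed as background, and nothing is read from them for genes chosen on this contrast.

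Levels of different genes were compared per kilobase of annotated exon. That length joins the exons of all annotated transcripts of a gene (1 for Rasd1, 9 for Nr3c1 and 15 for Fkbp5). The ranks may depend on this choice of length. Averaged over the 4 libraries, Zfp36 (99.8 CPM per kilobase) and Dusp1 (94.7) were the most abundant members and overlapped each other, followed by Sgk1 (61.9) and Cebpd (60.3), which also overlapped. In the library labelled WT 2, Cebpd (70.2) was above Zfp36 (69.7). Per1 (31.8) came next, its highest library (40.4) above the lowest of Cebpd (39.05). Every library of Per1 was above every library of Nr3c1 (14.7), Rasd1 (13.5), Klf9 (11.7), Tsc22d3 (10.6) and Fkbp5 (6.64). The ranges of neighbours among the last 5 overlapped. Rasd1 ranked 9 of 10 in WT 1 and 10 of 10 in the library labelled WT 2, at 6.27 and 4.29 CPM per kilobase. In both HET libraries it ranked 6 of 10, at 21.9 and 21.6, above the receptor gene.

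The profiles of the members over the 4 libraries differed among themselves. After each gene's log2 CPM was centred on its mean, Dusp1 and Klf9 were the most alike pair, differing by at most 0.11 in any library, followed by Per1 and Zfp36 (0.20) and Tsc22d3 and Per1 (0.21). Rasd1 was closest to Zfp36, at 0.81, and farthest from Nr3c1, at 1.63. Only 4 libraries enter this measure, so it describes these libraries and no correlation is given.

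By the same measure, the 5 named protein-coding genes closest to Rasd1 among 12864 were Rab37, Cd3d, Cd22, Olfr1129 and Grik2, within 0.12 to 0.31 in every library. Cd3d, a chain of the T cell receptor complex, stood at 2.71 CPM (WT 1), 2.56 (library labelled WT 2), 11.2 (HET 1) and 12.5 (HET 2). Cd22, a B cell surface lectin, stood at 2.23 and 1.496 CPM in the WT pair against 6.36 and 8.39 in the HET pair. Rab37, a secretory GTPase, was at 1.19 and 0.712 CPM in the WT pair against 3.76 and 4.01 in the HET pair. Olfr1129 belongs to a multigene family whose counts are uncertain. These genes were chosen for their likeness, which includes the difference between genotypes.

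T cell markers were also higher in both HET libraries. Of 6 T cell markers, 6 had every HET value above every WT value, where 19.6% of all genes tested did. They mark 1 cell type, so the 6 are not independent of each other. Their summed level was 12.4 CPM (WT 1), 4.77 (library labelled WT 2), 40.4 (HET 1) and 38.7 (HET 2). None of the 6 was at 0 in any library, and the lowest was Cd5 at 0.0712 CPM in the library labelled WT 2. Without that library the median log2 fold change of the T cell markers was 1.30. Tsc22d3, Per1 and Zfp36 were higher in the same libraries as these markers. The part of T cells in the level of Rasd1 or of these members was not tested, and in bulk RNA a change in the number of cells of a type cannot be told apart from a change in RNA per cell.

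Markers of other cell types were read in the same way. Macrophage markers summed to 826.0 CPM (WT 1), 42.7 (library labelled WT 2), 891.2 (HET 1) and 570.0 (HET 2), so WT 1 was between HET 2 and HET 1. Pan-leukocyte markers had sums of 327.9, 17.1, 372.9 and 298.9 in the same order, and endothelial markers 386.0, 73.2, 338.0 and 553.8. Adipocyte markers also separated the genotypes: they summed to 47.4, 12.3, 77.7 and 94.2, 4 of 4 tested were higher in both HET libraries, and most of the sum was Fabp4, while Adipoq stayed at 0.557 CPM or less. Of 9 endothelial markers, 6 were higher in both HET libraries, and of 8 pan-leukocyte markers 4 were. Of all genes tested, 19.6% were higher and 15.9% lower in this way. Fibroblast markers were highest in the library labelled WT 2, at 21810 CPM against 3958 to 6566. Of these, 6 of 9 were lower in both HET libraries. B cell markers summed to 2.07 CPM (WT 1), 0.641 (library labelled WT 2), 2.40 (HET 1) and 20.7 (HET 2). Erythroid markers summed to 5.33, 1.64, 5.52 and 15.7 in the same order. Both sums were thus also higher in both HET libraries, with HET 1 barely above WT 1. So were the 1 tested B cell marker and 2 of 3 tested erythroid markers. Neutrophil sums ranged from 5.34 to 29.8 CPM and overlapped between genotypes. Epithelial markers summed to 3715 and 3472 CPM in the WT pair against 2587 and 2325 in the HET pair. Of 9 epithelial markers, 2 were lower in both HET libraries, 1 was higher in both and 6 overlapped. The part of any of these in the members' values was not tested.

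**Figure D3:**
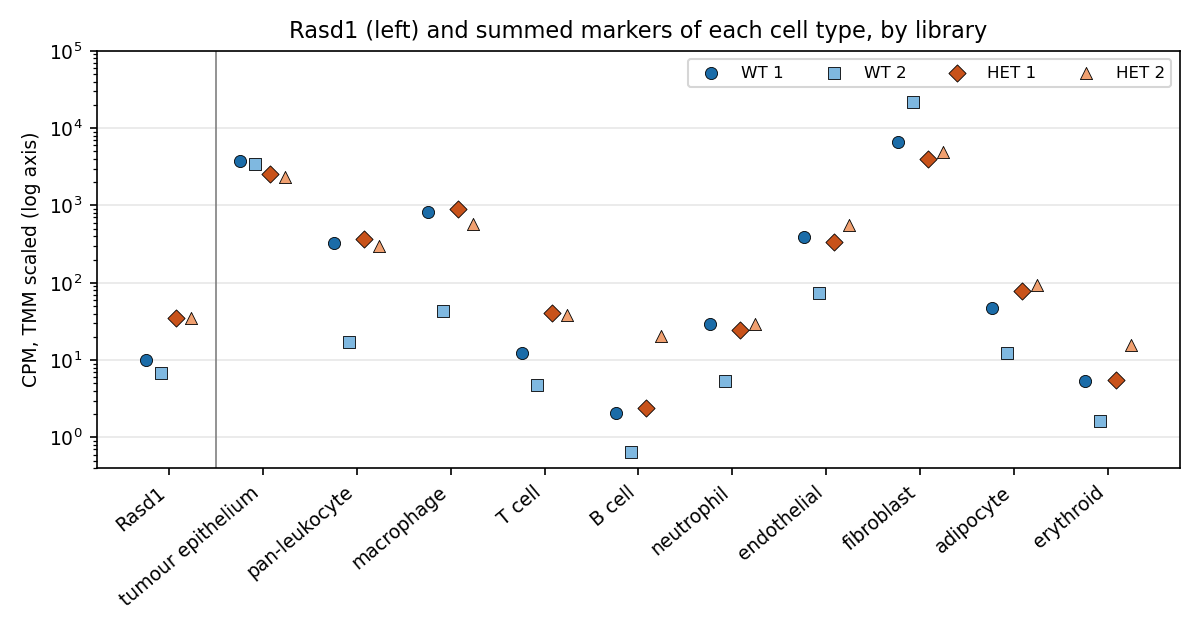
Rasd1 at the far left and the summed markers of 10 cell types, as CPM scaled by TMM on a log axis, with 1 symbol per library. The T cell sum separates HET (40.4 and 38.7 CPM) from WT (12.4 and 4.77) as Rasd1 does. Adipocyte, B cell and erythroid sums are also higher in both HET libraries. Macrophage and pan-leukocyte sums are low in the library labelled WT 2 alone.

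A list of 30 other glucocorticoid-induced genes had a median near that of all genes. Of these, 0 passed edgeR's test in either direction, 0 had an unadjusted p under 0.05, and DESeq2 and limma-voom called 0. Of the list, 15 were above 0 and 15 below, and the median log2 fold change was 0.07 against 0.04 over all genes. Without overlap between genotypes, 7 were higher and 3 lower in HET, against 19.6% and 15.9% of all genes. The genes of smallest p were Crispld2, Bcl6 and Zbtb16 (each with adjusted p = 0.987 in edgeR). Crispld2, a secreted regulator of lung development, stood at 125.2 and 77.9 CPM in the WT pair against 127.0 and 253.4 in the HET pair, so HET 1 barely exceeded WT 1. Zbtb16, a zinc finger repressor strongly induced by glucocorticoids in many cells, was at 3.02 and 3.35 CPM in the WT pair against 10.2 and 4.23 in the HET pair. Bcl6, a germinal centre repressor, was lower, at 43.6 and 71.6 CPM in the WT pair against 39.2 and 30.7 in the HET pair. Metallothioneins Mt1 and Mt2 and Anxa1 overlapped between genotypes, as did Ddit4 and Nfkbia. The signs moved with the setting: 19 were above 0 with total-count scaling and 20 without WT 1 (median 0.27). Without the library labelled WT 2 there were 19 (median 0.17), and without HET 1 there were 12 (median -0.19). Of all 21607 genes, 14408 were above 0 with total-count scaling and 12159 without WT 1. Without the library labelled WT 2 and without HET 1, 11153 and 10611 of all genes were.

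Genes that hold, activate or assist the receptor were mostly lower in HET by sign. Of 19 such genes 0 passed edgeR's test, DESeq2 or limma-voom, and 0 had an unadjusted p under 0.05. By sign, 15 were below 0 and 4 above, where 10215 and 11392 of all 21607 genes were. The median log2 fold change of the list was -0.16. That sign depended on scaling: with total counts alone the median of all genes moved by 0.18 and that of this list turned to 0.02. At that setting 8 of the list were below 0, as were 7199 of all genes. Without the library labelled WT 2, 10 of the 19 were below 0 and 9 above (10454 and 11153 of all genes). Hsp90aa1, a chaperone subunit that keeps the receptor ready to bind hormone, stood at 1949 and 1627 CPM in the WT pair against 1247 and 1261 in the HET pair. Ptges3, the p23 co-chaperone, was at 184.2 and 140.2 CPM in the WT pair against 91.0 and 136.4 in the HET pair. Hsd11b1, the enzyme that regenerates active glucocorticoid inside cells, was higher in both HET libraries, at 6.12 and 5.41 CPM in the WT pair against 12.8 and 9.65 in the HET pair (log2 fold change 0.96 ± 0.44, SE; adjusted p = 0.987 in edgeR). Hsd11b2, which inactivates the hormone, was at 0.445 to 1.36 CPM, and Nr3c2, the mineralocorticoid receptor gene, at 2.23 to 5.98.

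Inflammatory genes that glucocorticoids commonly repress split in both directions. Of 20 listed, 19 were tested (Csf2 was below the filter), 0 passed in edgeR with its filter on low counts, DESeq2 or limma-voom, 2 had an unadjusted p under 0.05 (both lower), 9 were above 0 and 10 below. Mmp9, a gelatinase, stood at 84.0 CPM (WT 1), 14.0 (library labelled WT 2), 9.28 (HET 1) and 8.16 (HET 2). Its log2 fold change of -2.49 ± 0.81 (SE) missed the threshold in edgeR (adjusted p = 0.987). Leaving out the library labelled WT 2 gave -3.27, and leaving out WT 1, the highest library, gave -0.68. Either fit left 1 library in WT, so only the size of the difference is given. When every gene with at least 1 count was kept, edgeR called Mmp9 (adjusted p = 3.14e-05) and Ptgs2 (adjusted p = 0.0025), both lower. Ptgs2, the inducible cyclooxygenase, was highest in the library labelled WT 2, at 411.8 CPM against 89.6 in WT 1 and 90.0 and 61.7 in HET. HET 1 was thus just above WT 1, and the groups overlapped. The log2 fold change of Ptgs2 was -2.44 without WT 1 and -0.24 without the library labelled WT 2. Ccl5, a T cell chemokine, was at 5.25 and 2.06 CPM in the WT pair against 6.43 and 11.4 in the HET pair. Il6 was higher in both HET libraries, at 17.2 and 14.7 CPM in the WT pair against 24.4 and 22.6 in the HET pair.

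**Figure D4:**
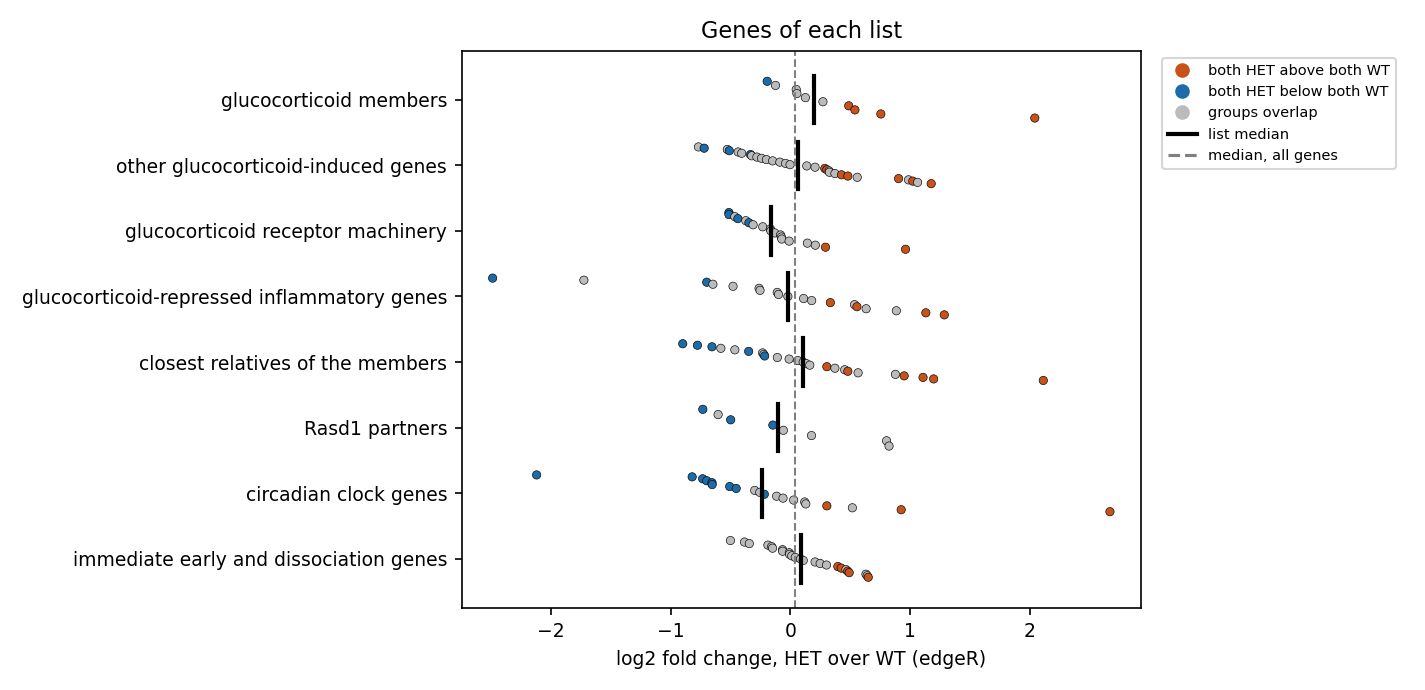
Log2 fold change of HET over WT for every tested gene of each list, from edgeR. Orange points are genes higher in both HET than in both WT libraries, blue points lower in both, grey points overlapping; the black bar is the list median and the dashed line the median of all genes, 0.04. Rasd1 is the rightmost point of the first row at 2.04, while the medians of all 8 lists lie between -0.24 and 0.20.

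The closest relatives of the members and the partners of Rasd1 were also read out. Rasd2, known as Rhes in the striatum, stayed between 0.636 and 1.86 CPM, where counting error is large. Of 25 relatives 0 passed edgeR's test, DESeq2 or limma-voom and 1 (Dusp5) had an unadjusted p under 0.05, with 6 higher and 5 lower in both HET libraries, near the 19.6% and 15.9% of all genes. Dusp5, a nuclear phosphatase of ERK, stood at 66.1 and 29.1 CPM in the WT pair against 89.0 and 116.4 in the HET pair. Klf10 was lower, at 150.9 and 80.5 CPM in the WT pair against 60.5 and 63.6 in the HET pair, and so was Klf16, at 21.3 and 23.5 in the WT pair against 13.1 and 13.1 in the HET pair. Among 8 partners of the Rasd1 protein 0 passed with any of these tools and 0 had an unadjusted p under 0.05, and 0 were higher and 3 lower in both HET libraries (19.6% and 15.9% of all genes were). With total-count scaling 2 of the 8 were higher and 1 lower, where 6107 and 1878 of all 21607 genes were. Nos1ap, the adaptor that links it to neuronal nitric oxide synthase, was at 14.8 and 5.84 CPM in the WT pair against 14.2 and 22.3 in the HET pair. Gnai3, an inhibitory G protein subunit, was at 139.5 and 165.4 CPM in the WT pair against 108.7 and 107.2 in the HET pair. Slc11a2, an iron transporter reached through the Rasd1 complex, was at 29.4 and 14.1 CPM in the WT pair against 13.9 and 12.3 in the HET pair.

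Per1 belongs to the circadian clock, and 13 of 20 other clock genes had a log2 fold change below 0 (11 of 20 with total-count scaling). Of all 21607 genes, 10215 were below 0, and 7199 with total-count scaling. In edgeR with its filter on low counts 0 of the 20 passed, with 1 higher and 2 lower at an unadjusted p under 0.05. Of the 20, 9 had both HET values below both WT values (15.9% of all genes were) and 3 were higher (19.6%). The 9 were Ciart, Dbp, Clock, Tef, Per3, Nr1d1, Arntl, Csnk1e and Cry1. Ciart, a repressor of the core activators, stood at 6.36 CPM (WT 1), 8.83 (library labelled WT 2), 1.56 (HET 1) and 1.93 (HET 2), a log2 fold change of -2.12 ± 0.54 (SE; adjusted p = 0.987 in edgeR). Clock, an activator subunit, was at 139.1 and 129.8 CPM in the WT pair against 79.4 and 82.5 in the HET pair. Dbp, an output factor of the clock, was at 13.4 and 11.8 CPM in the WT pair against 7.73 and 6.53 in the HET pair. Per2 and Bhlhe41 were among those higher with Per1. Bhlhe41, a repressor of clock activators, was at 77.6 and 127.9 CPM in the WT pair against 331.8 and 977.2 in the HET pair and passed in DESeq2 (adjusted p = 0.00664). In edgeR it did not pass with the filter on low counts (adjusted p = 0.987) and passed when every gene with at least 1 count was kept (adjusted p = 2.95e-06). With total-count scaling 7 of the 20 were lower and 5 higher, where 1878 and 6107 of all 21607 genes were. Time of collection is not given in the sources used here, and whether it differed between the tumours was not tested.

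**Figure D5:**
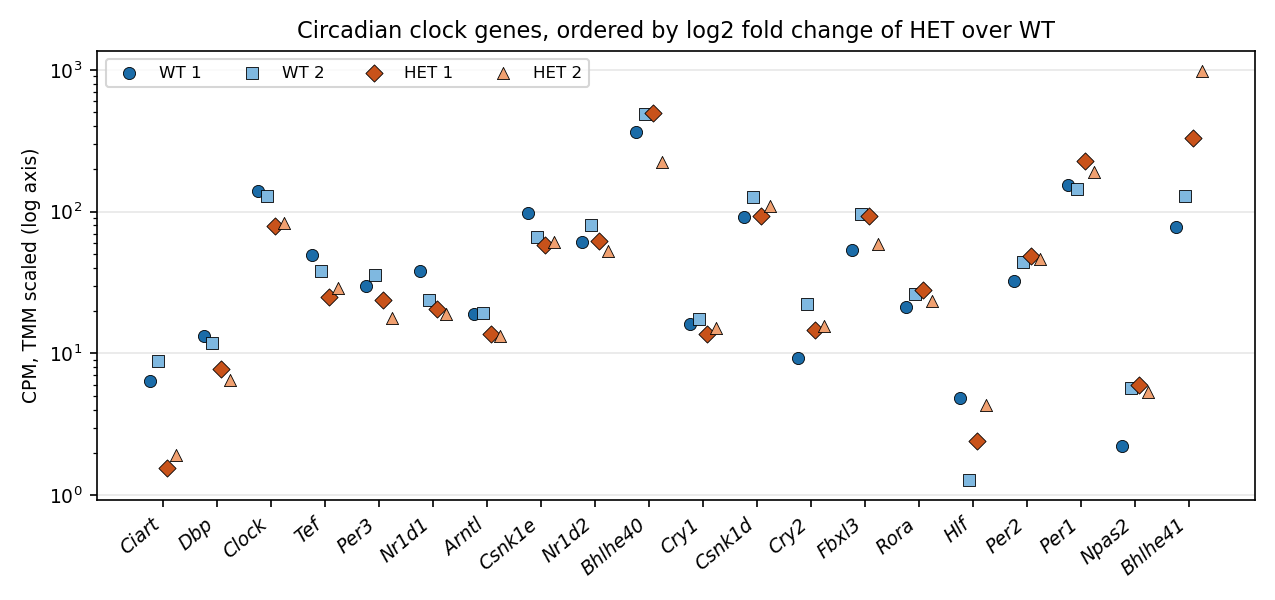
Expression of circadian clock genes of the list and Per1 in each library, as CPM scaled by TMM on a log axis, ordered from lower to higher in HET. Both HET symbols lie below both WT symbols for Ciart (1.56 and 1.93 CPM in HET) and above them for Bhlhe41 (331.8 and 977.2), with Per1 among the genes on the right.

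Several members are also immediate early genes that enzymatic digestion of tissue induces, so a list of 26 such genes without the members was read beside them. Of 25 in the table (Cyr61 was not matched by symbol) 0 passed edgeR's test, DESeq2 or limma-voom, 0 had an unadjusted p under 0.05, and 5 were higher and 0 lower in both HET libraries (19.6% and 15.9% of all genes were). With total-count scaling 11 were higher and 22 of 25 were above 0, where 6107 and 14408 of all 21607 genes were. The median log2 fold change was 0.09 against 0.04 over all genes, and 0.34 without the library labelled WT 2. Their summed level was 13650 CPM (WT 1), 14420 (library labelled WT 2), 14040 (HET 1) and 15000 (HET 2). The part of tissue digestion in the members' values was not tested. Fos stood at 1040 and 912.8 CPM in the WT pair against 1050 and 891.7 in the HET pair. Socs3, a feedback inhibitor of cytokine receptors, was at 131.5 and 115.7 CPM in the WT pair against 190.7 and 197.5 in the HET pair, and Btg2 and Klf2 were the other listed genes of smallest p, at log2 fold changes of 0.49 and 0.63.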

How the data were processed

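RNA-seq libraries of 4 sorted mouse mammary tumours were compared, 2 Elf5+/+ and 2 Elf5+/-. Deposited values are gene-level estimated counts made with Salmon on GRCm38.p5, per the submitters' processing notes. Not given in the sources used here: Salmon's version, annotation and strandedness. Values were rounded to whole numbers. Of 51826 identifiers, 51633 matched GENCODE M21, and 0 rows named no gene. Genotype was fitted with edgeR 4.0.16 (R 4.3.3; filterByExpr, TMM, quasi-likelihood F test, Benjamini-Hochberg over 21607 genes, adjusted p under 0.05), with 2 residual degrees of freedom and a biological coefficient of variation of 0.46. Each SE is the absolute log2 fold change divided by the square root of the F statistic, because the test itself reports no SE. CPM use the TMM-scaled library size. A count of 3, taken as the limit that a count of 0 allows, is 0.195 to 0.239 CPM. Such limits cover counting error only.

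The fit was tested on simulated data. Alternatives were other scalings and filters, DESeq2 1.42.0, limma-voom (limma 3.58.1), protein-coding genes only, and leaving out each library. No library pair agreed within sampling noise (chi-square per degree of freedom 35.7 to 91.9, over genes with at least 10 counts).

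The members and lists were chosen with earlier results of these data known. Named genes are all members, the 3 genes of smallest p in each list, and the 5 protein-coding genes (mean log2 CPM of at least 1) whose centred profile was closest to that of Rasd1. Other genes named were chosen after their values were seen. Whether the libraries of a genotype came from separate animals is not stated. A p-value thus reflects the spread between tumour libraries and may not reflect that between animals. Promoters are from RefSeq (GRCm38.p6). A listed clock gene enters the counts and is not reported here by name.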

Additional observations from a re-analysis of the deposited data

How the results depend on the processing

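Rasd1, Tsc22d3, Per1, Zfp36 and Sgk1 kept their sign under all 12 alternatives, Fkbp5, Nr3c1 and Cebpd under 10, and Dusp1 and Klf9 under 9. The log2 fold change of Rasd1 ranged from 1.79 to 2.34. Genes passing, 0 in edgeR, were 133 higher and 191 lower when every gene with at least 1 count was kept, and 43 higher and 91 lower in DESeq2. Leaving out 1 library gave 0 to 493 higher and 0 to 164 lower, the most without WT 1, and 1 higher and 8 lower without the library labelled WT 2. Members passing were 1 (Rasd1) with every gene kept, in DESeq2 and without WT 1, and 0 to 1 over libraries left out, which is no test of a gene chosen on this contrast. Members higher in HET without overlap were 4 to 7 over libraries left out (7 without the library labelled WT 2). Members lower were 1 to 3 (3 without WT 1 and without HET 1). Of all 21607 genes, 7308 were higher without the library labelled WT 2 and 9382 without WT 1. Lower in this way were 7258 without WT 1 and 6388 without HET 1. With total counts alone 0 members were lower. The median over members was -0.07 to 0.40 over libraries left out, reversing to -0.0657 without WT 1. The cause was not tested. With total counts alone, 6107 genes were higher and 1878 lower without overlap, against 4241 and 3426. Where 1 library was left in a genotype, its spread was taken from the other genotype. Rasd1 rests on 97 to 543 counts. No paired analysis was possible because the titles number the tumours T1 and T1 in WT and T1 and T2 in HET, so fewer than 2 numbers are shared, and the WT numbers used here only name libraries.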
